A study of Homo sapiens with 148 samples.

Results

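Keratin genes were taken as every row of the deposited expression table whose name is KRT followed by a number and at most 1 letter. This gave 49 rows under 48 names, of 49085 names in the whole table. The 48 names were split into 5 keratins of simple (single-layered) epithelia, 18 keratins of squamous (stratified) epithelia, 11 hair and nail keratins, 6 keratins of the hair root sheath, 3 that fit none of these groups (KRT23, KRT80 and KRT222) and 5 whose names end in P and mark pseudogenes. The split used only what the genes are known for and no measured value.

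RNA-seq was performed on wild-type cells of a single line, H9, an established human embryonic stem cell line (hESCs), and on 3D spheroids differentiated from it towards pancreatic islet cells. Definitive endoderm (DE, day 4) was induced with Activin A and CHIR99021, and primitive gut tube-like cells (PGT, day 7) with KGF. Pancreatic progenitors (PP, day 14) were induced with KGF, Sant1, retinoic acid, LDN193189 and PdBU. The organoids of the β-cell stage (SC-β, day 35) were induced with Alk5i II, T3, XXI, betacellulin, Sant1 and retinoic acid. Y27632 was also in the medium while spheroids formed and in the steps to DE and PP. A sixth group, labelled PH, is named in the labels only as a stage of the same differentiation, so its place in the order is not defined here. The labels give 2 samples per stage, and the table gives their mean in TPM, which corrects for the length of a transcript and brings all libraries to 1 common sum.

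Every value below is therefore the authors' mean, with no spread between replicates, no read depth and no test. A difference was called only by its size, from 2-fold on the log2(TPM + 1) scale, and no fold is given against a stage at which a gene is listed at 0. In RNA from mixed cells, fewer cells of a type and less RNA per cell cannot be told apart. The stages were checked against marker genes: POU5F1 and NANOG were highest in hESCs, SOX17 in DE and HNF4A in PGT, then PDX1 in PP, and INS, GCG and CHGA in SC-β. FOXA2, set as a marker of DE, was highest a stage later (PGT), and NKX6-1, set for PP, was highest in SC-β, and PDX1 did not exceed 3.17 TPM. For PH no marker was set, and PDX1 was at 0.0173 TPM there.

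Keratins form the intermediate filaments of epithelial cells. Each filament is built of type I and type II keratins in pairs, and the pair in use changes with the kind of epithelium. KRT8 with KRT18 is the pair of embryonic and simple epithelia, joined by KRT19 and KRT7 in ducts and by KRT20 in gut. Stratified epithelia use KRT5 with KRT14 or KRT15 in their basal layer and, in the layers above it, KRT1 with KRT10 in epidermis or KRT4 with KRT13 in oesophagus and mouth. KRT6A, KRT16 and KRT17 mark skin appendages and wounded skin. The acinar and ductal cells of the pancreas carry simple keratins, and squamous keratins are not part of a normal islet.

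Keratin RNA was mostly that of simple epithelia up to PP, and in SC-β the squamous keratins reached a similar summed level. Simple keratins held 99.5% of the summed keratin TPM in hESCs, 99.7% in DE, 99.4% in PGT and 88.7% in PP, but 45.1% in SC-β and 68.7% in PH. The summed level of the simple keratins was 1072 TPM in hESCs, 2140 in DE and 2309 in PGT, then 640.5 in PP and 581 in SC-β. The summed level of the squamous keratins was 4.18, 4.25, 8.13 and 7.03 TPM at the first 4 of these stages and 667 TPM in SC-β, where it was 1.15 times that of the simple keratins. With the TPM of keratin pseudogene entries added to their parent genes this ratio was 0.993, so which class was the larger in SC-β depends on how those entries are treated. Between PP and SC-β the simple sum changed little (log2 ratio -0.14), whereas the squamous sum had a log2 ratio of 6.38. In PH, the simple keratins summed to 159.3 TPM, below every other stage, and the squamous keratins to 67.6 TPM, below SC-β but 9.62 times the level in PP.

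**Figure D1:**
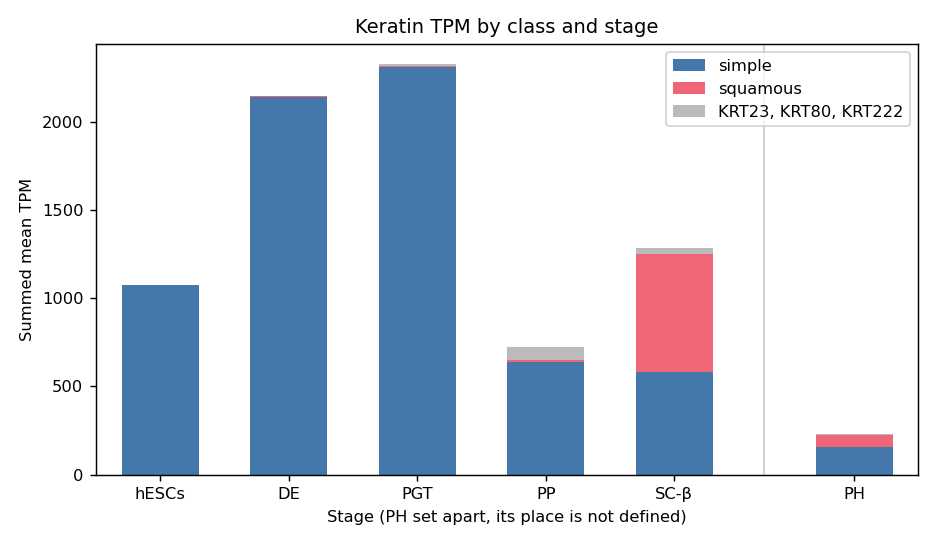
Summed mean TPM (y axis) of simple keratins, squamous keratins and the group KRT23, KRT80 and KRT222, stacked for each stage (x axis), from 1 mean per stage without error. Squamous keratins are hardly visible up to PP (7.03 TPM) and make up 667 TPM in SC-β. The hair, root sheath and pseudogene names, which sum to 2.72, 0.153 and 0.466 TPM in SC-β, are not drawn.

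Few keratins carried this RNA. Of the 48 names, 6 reached 100 TPM at some stage, 4 others reached 10 TPM, 8 peaked between 1 and 10 TPM, and 30 stayed under 1 TPM at every stage. The number of keratins at 1 TPM or more was 5 in hESCs, 5 in DE and 8 in PGT, then 8 in PP, 11 in PH and 18 in SC-β. SC-β was the stage with the highest level for 31 of the 48 names, among them 15 of the 18 squamous keratins but only KRT20 of the 5 simple ones.

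KRT8, the type II keratin of simple epithelia, was at 517 TPM in hESCs, 1055 in DE and 869 in PGT, then 288 in PP, 209.6 in SC-β and 21.4 in PH. It was among the most abundant RNAs of the early stages, with only 59 of all gene names above it in DE, against 309 in SC-β and 4893 in PH. Its log2 ratio of DE to hESCs was 1.03, just past 2-fold, and it was 0.54 after each stage was rescaled by its median ratio to the others, so that this call rests on the scaling. PP was lower than PGT by a log2 ratio of -1.59.

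KRT18, its type I partner, was at 428 TPM in hESCs, 439 in DE and 349 in PGT, then 175.5 in PP, 112.8 in SC-β and 40.8 in PH. It did not double with KRT8 in DE (log2 ratio 0.04), and no step from hESCs to PP or from PP to SC-β reached 2-fold, although SC-β was below hESCs by a log2 ratio of -1.91. The TPM of KRT8 was 1.21 times that of KRT18 in hESCs, 2.40 times in DE, 2.49 times in PGT, 1.64 times in PP and 1.86 times in SC-β. In PH alone KRT8 was the lower of the pair, at 0.524 times KRT18.

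KRT19, a type I keratin of simple and ductal epithelia, was at 125.6 TPM in hESCs, 646 in DE and 1064 in PGT, then 170.5 in PP, 230.6 in SC-β and 90.0 in PH. Its level therefore peaked a stage later than that of KRT8 and KRT18, and in PGT it was the most abundant keratin, with 60 gene names above it. DE exceeded hESCs by a log2 ratio of 2.35, and PP was below PGT by a log2 ratio of -2.63, the widest step of any simple keratin between these stages. It was also the most abundant keratin in PH.

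KRT7, the type II keratin found in ducts, was far lower, at 1.53 TPM in hESCs, 0.777 in DE and 27.7 in PGT, then 6.45 in PP, 19.7 in SC-β and 7.04 in PH. It had a first peak in PGT, with a log2 ratio to DE of 4.01, and a second in SC-β, with a log2 ratio to PP of 1.47. KRT20, a keratin of gut epithelium, was listed at 0 in hESCs and PGT and did not exceed 0.108 TPM in DE, PP or PH, whereas SC-β had 7.91 TPM. KRT7 and KRT20 were thus the only simple keratins at least 2-fold higher in SC-β than in PP.

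**Figure D2:**
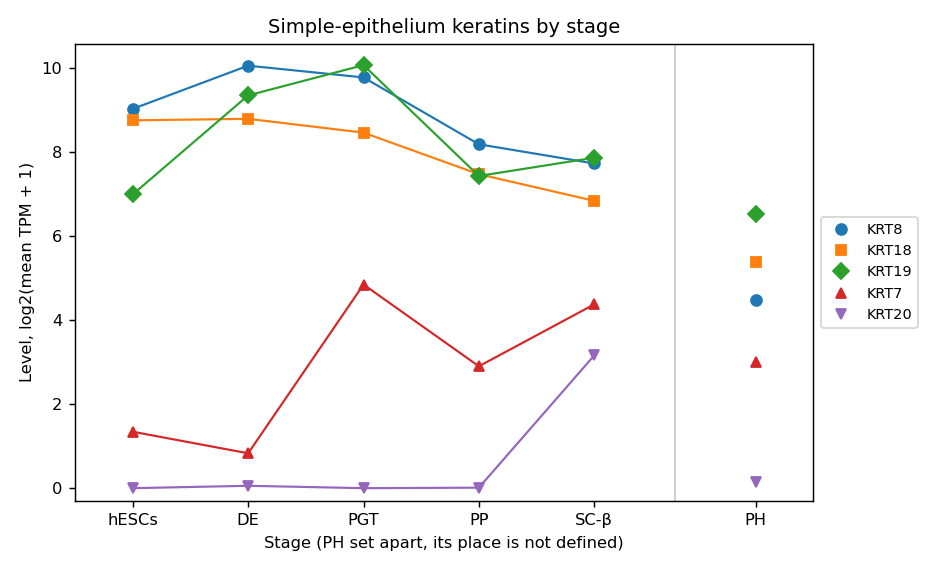
Level of each simple keratin as log2(mean TPM + 1) (y axis) at each stage (x axis), with lines through the 5 stages of defined order and PH set apart. KRT8 and KRT18 peak in DE, KRT19 and KRT7 in PGT and KRT20 in SC-β, and KRT8 in PH is at 21.4 TPM.

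Squamous keratins were led by KRT4, a type II keratin of the upper layers of oesophagus and mouth. It was listed at 0 in hESCs and DE and was at 0.0573 TPM in PGT, 0.348 in PP, 20.4 in PH and 351 in SC-β. In SC-β it was the most abundant of all keratins, with 191 gene names above it, and its log2 ratio to PP was 8.03. KRT13, the type I partner of KRT4, was also highest in SC-β and then in PH: it was listed at 0 in hESCs, DE and PP and was at 0.0679 TPM in PGT, 3.66 in PH and 109.9 in SC-β. KRT4 was at 3.20 times the TPM of KRT13 in SC-β and at 5.57 times in PH.

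KRT17, a type I keratin of skin appendages and injured skin, was at 0.863 TPM in hESCs, 0.0327 in DE and 0.987 in PGT, then 0.0415 in PP, 32.0 in PH and 112.7 in SC-β. It was the most abundant squamous keratin in PH and the second in SC-β, where KRT18 was at 112.8 TPM. KRT15, of the basal layer, was detected at every stage, at 0.102 TPM in hESCs, 0.672 in DE and 1.53 in PGT, then 0.595 in PP, 6.53 in PH and 29.6 in SC-β. Its log2 ratio to PP was 4.26 in SC-β and 2.24 in PH. KRT1, of the upper epidermis, was listed at 0 at the other 5 stages and was at 49.9 TPM in SC-β.

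The usual partners of these keratins were not all present in proportion. KRT10, the partner of KRT1, was at 3.20 TPM in hESCs, 3.47 in DE and 4.45 in PGT, then 4.27 in PP, 3.19 in PH and 6.16 in SC-β, with all stages less than 2-fold apart. KRT1 was at 8.10 times its TPM in SC-β. KRT5, the type II keratin of basal cells, was listed at 0 up to PGT and was at 1.71 TPM in PP, 1.72 in PH and 2.11 in SC-β. Its partner KRT14 was listed at 0 except in SC-β, at 0.0117 TPM. The remaining squamous keratins that reached 1 TPM did so in SC-β, KRT6A at 2.34 TPM and KRT78 at 1.38 TPM. The other 9 squamous keratins did not exceed 0.769 TPM, the value of KRT16 in PGT.

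**Figure D3:**
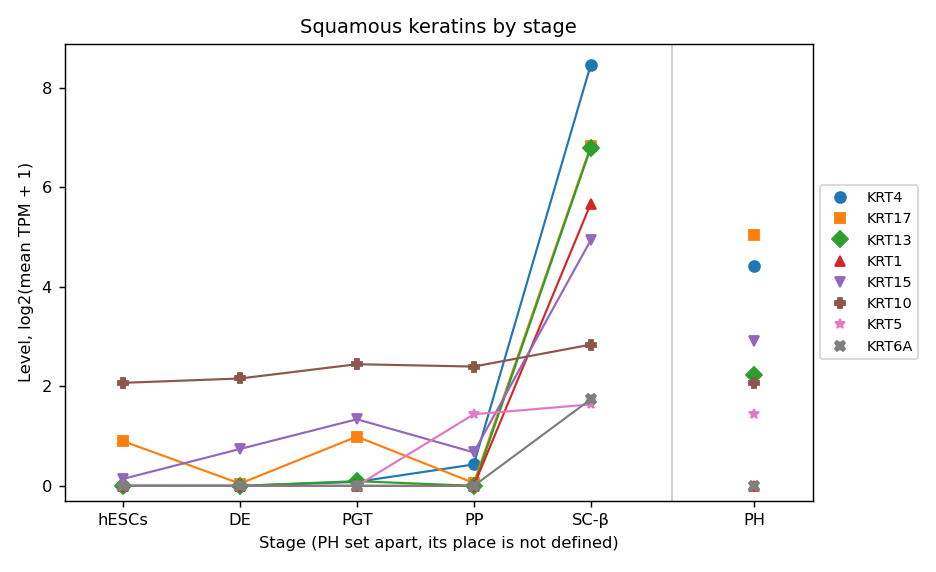
Level of the squamous keratins at 1 TPM or more at some stage, except KRT78, as log2(mean TPM + 1) (y axis) by stage (x axis), with lines through the 5 stages of defined order and PH set apart. All but KRT10 and KRT5 are low up to PP and higher in SC-β, with KRT4 at 351 TPM, and KRT17, KRT4, KRT15 and KRT13 are also raised in PH. Symbols of genes listed at 0 overlap on the baseline.

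The 3 unclassed keratins had patterns of their own. KRT23, a type I keratin, was at 0.0985 TPM in hESCs, at 0 in DE, and at 3.40 in PGT, 72.1 in PP, 29.5 in SC-β and 2.57 in PH. It was the only keratin above 10 TPM that peaked in PP, with a log2 ratio to PGT of 4.05, and the only one at least 2-fold lower in SC-β than in PP (log2 ratio -1.26). KRT80, a type II keratin, stayed at or under 0.501 TPM until SC-β, where it was at 4.87 TPM. KRT222, a shortened type I keratin-like gene, has 2 entries in the table and peaked in DE, at 2.98 TPM for their sum.

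Counted over all 48 names, DE exceeded hESCs at least 2-fold for 3 keratins (KRT8, KRT19 and KRT222), which is 6.25% of them, while 12.9% of all gene names did so. Rescaling by median ratios left only KRT19, and KRT222 was also under 2-fold (log2 ratio 0.49) when its higher entry was taken in place of the sum. PGT exceeded DE for 2 keratins (KRT7 and KRT23), 4.17% against 2.3% of all names. PP was below PGT for 3 (KRT7, KRT8 and KRT19), 6.25% against 3.25% of all names, and above PGT for 2 (KRT5 and KRT23), 4.17% against 2.74%. None was lower in DE than in hESCs or in PGT than in DE, where 2.55% and 4.92% of all names were. A gene under 1 TPM at both stages cannot pass 2-fold. Among names at 1 TPM or more in either stage, DE exceeded hESCs for 3 of 6 keratins beside 28.2% of all such names (5.55% lower), and PGT exceeded DE for 2 of 8 keratins beside 4.94% (10.6% lower). PP exceeded PGT for 2 of 9 keratins beside 6.3% of such names, and was below it for 3 of 9 beside 7.46%.

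SC-β exceeded PP at least 2-fold for 10 of the 48 keratins, or 20.8%, beside 10.6% of all names. These were KRT1, KRT4, KRT6A, KRT13, KRT15, KRT17 and KRT78 of the squamous class, KRT7 and KRT20 of the simple class, and KRT80. Only KRT23 was lower (2.08%, beside 0.939% of all names). Among names at 1 TPM or more in either stage, 10 of 18 keratins (55.6%) and 20.7% of all such names were higher in SC-β, and 1 of 18 keratins was lower beside 1.84%, with a median log2 ratio of 1.36 for the keratins and 0.45 for all. Over all 48 keratins the median log2 ratio was 0.15 and that of all names 0.16.

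Against hESCs, SC-β was at least 2-fold higher for 13 keratins (27.1%, beside 22.2% of all names) and lower for KRT8 and KRT18 (4.17%, beside 3.7%). At 1 TPM or more in either stage these were 13 and 2 of 18 keratins, beside 42.4% and 7.08% of all such names. Over all 48 keratins both shares were near those of all names. The first pair of simple keratins was lower and 8 of the 18 squamous keratins were higher, beside the same 3.7% and 22.2% of all names. The simple class itself was split, since KRT7 (log2 ratio 3.03) and KRT20, listed at 0 in hESCs, were also at least 2-fold higher in SC-β. KRT19, which is simple, was at a log2 ratio of 0.87 in the same comparison, under 2-fold.

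PH was compared with PP and SC-β because its place among them is not defined. Against PP, 4 keratins were at least 2-fold higher (8.33%, beside 5.14% of all names), and all of them were squamous: KRT17 (log2 ratio 4.99), KRT4 (3.99), KRT15 (2.24) and KRT13, which is listed at 0 in PP. KRT8 (-3.69), KRT18 (-2.08) and KRT23 (-4.36) were lower, 6.25% beside 5.73% of all names. At 1 TPM or more in either stage these were 4 and 3 of 12 keratins, beside 11.5% and 12.8%. The comparisons of PH with PP and of SC-β with PP and PH share stage columns. SC-β exceeded PH for 15 keratins (31.2%, beside 14.7% of all names), including all 5 simple ones, and 0 were lower, where 2.41% of all names were. At 1 TPM or more in either stage these were 15 and 0 of 18 keratins, beside 28.1% and 4.6%. Of these 15 calls, 5 were lost when the stages were rescaled by their median ratios: KRT7 (log2 ratio 0.91), KRT18 (0.96), KRT19 (0.86), KRT40 (0.91) and KRT78 (0.97).

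Because keratins polymerise as type I with type II, the summed TPM of the types was also compared. The 24 type I keratins summed to 558 TPM in hESCs, 1092 in DE and 1426 in PGT, then 425 in PP, 644 in SC-β and 180.6 in PH. The 19 type II keratins summed to 519, 1056, 897, 297, 642 and 51.2 TPM at the same stages. The ratio of type I to type II was 1.08 in hESCs, 1.03 in DE and 1.00 in SC-β, where KRT4 made up most of the type II sum, and 1.59 in PGT and 1.43 in PP. Without KRT19 it was 0.404 in PGT and 0.856 in PP, and without KRT23 it was 1.59 and 1.19. The ratio of all members was 3.53 in PH, with KRT19 at 90.0 TPM and KRT8 at 21.4 TPM. Summed RNA does not show which keratins share a cell.

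**Figure D4:**
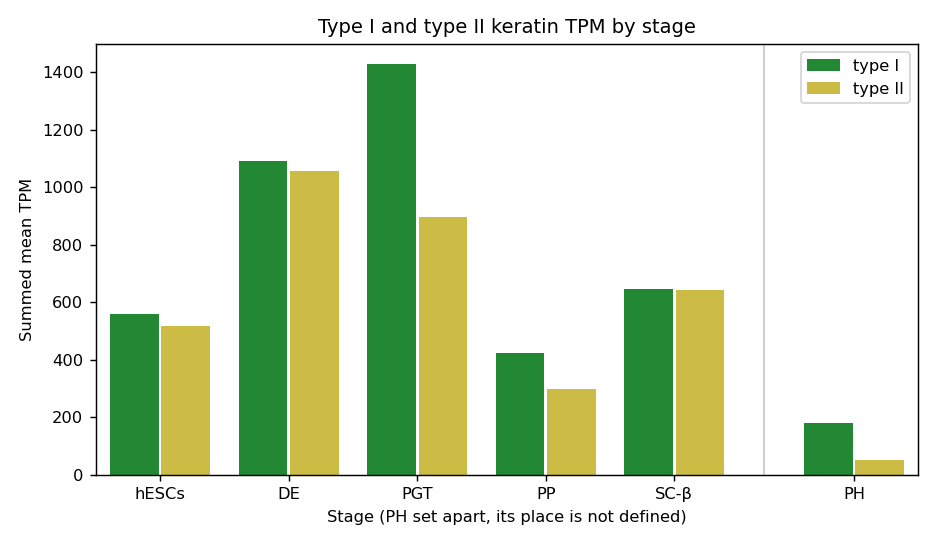
Summed mean TPM (y axis) of the 24 type I and the 19 type II keratins at each stage (x axis), without error bars since each is 1 mean. The bars are nearly level in hESCs, DE and SC-β, and type I exceeds type II in PGT (ratio 1.59), PP (1.43) and PH (3.53).

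The genes lie in 2 clusters on GRCh38 (GENCODE version 44): all 19 type II members and KRT18 on chromosome 12, and the other 23 type I members on chromosome 17. Neighbours differed widely in level. On chromosome 17, KRT13 (ENSG00000171401.15, 41500981 to 41505705), KRT15 (ENSG00000171346.16, 41513745 to 41522529) and KRT19 (ENSG00000171345.13, 41523617 to 41528308) lie side by side on the reverse strand. In PGT their levels were 0.0679, 1.53 and 1064 TPM, and in SC-β 109.9, 29.6 and 230.6 TPM. On chromosome 12, KRT4 (ENSG00000170477.13, 52806549 to 52814116, reverse strand) was at 0.0573 TPM in PGT, while KRT8 (ENSG00000170421.13, 52897187 to 52949954, reverse strand) was at 869 TPM. KRT3 and KRT79, the nearest members on either side of KRT4, were at 0.109 TPM and 0 in SC-β, where KRT4 was at 351 TPM. The annotated spans of KRT8 and KRT18 (52948871 to 52952906, forward strand) overlap by 1084 bases on opposite strands, and since the strand setting of the counting is not stated in the sources used here, reads in the overlap cannot be assigned with certainty.

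The 250 bases before the start site are given from RefSeq (GRCh38.p14) for the keratins below, chosen as the leading squamous keratin (KRT4), a simple keratin that reached 1 TPM only in SC-β (KRT20) and a squamous keratin with a nearly level RNA (KRT10). They are written 5′ to 3′ on the reverse strand of the genome, at chr12:52814117-52814366, chr17:40885243-40885492 and chr17:40822615-40822864, and capitals mark the motifs found.

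KRT4: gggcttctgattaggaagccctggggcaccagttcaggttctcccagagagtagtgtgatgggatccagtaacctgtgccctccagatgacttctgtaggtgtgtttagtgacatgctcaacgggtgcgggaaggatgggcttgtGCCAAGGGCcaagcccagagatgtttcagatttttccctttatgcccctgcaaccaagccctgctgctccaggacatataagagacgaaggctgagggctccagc
KRT20: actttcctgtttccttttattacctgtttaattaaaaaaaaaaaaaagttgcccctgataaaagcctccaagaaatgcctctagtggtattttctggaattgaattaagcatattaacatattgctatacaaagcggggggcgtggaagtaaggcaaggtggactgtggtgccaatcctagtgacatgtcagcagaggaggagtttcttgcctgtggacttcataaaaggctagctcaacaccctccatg
KRT10: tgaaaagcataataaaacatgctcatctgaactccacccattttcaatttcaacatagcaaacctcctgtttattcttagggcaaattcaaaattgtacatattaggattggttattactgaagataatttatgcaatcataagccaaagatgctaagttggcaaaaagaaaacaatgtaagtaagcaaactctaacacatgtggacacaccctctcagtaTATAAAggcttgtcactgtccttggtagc

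Both strands were searched for TATAAA (the TATA box), GGGCGG (SP1), TGANTCA (AP-1), GCCNNNGGC (AP-2) and TGTTTAC (FOXA). The KRT4 window holds 1 AP-2 match, from 105 to 97 bases before the start, and the KRT10 window 1 TATA box, from 29 to 24 bases before it. The KRT20 window holds no match. A RefSeq window was used for 24 of the 48 members, and 13 of them (54.2%) hold TATAAA, against 11.1% of the 27305 gene names with a window. GGGCGG is in 3 (12.5%) against 42.3%, GCCNNNGGC in 4 (16.7%) against 19.7%, and TGANTCA and TGTTTAC in 0 against 6.60% and 2.98%. The 13 keratins with TATAAA were 6 of hair, 4 of the root sheath and 3 squamous, and of these only KRT10 reached 1 TPM. Of the 11 keratins that are simple or reached 10 TPM, 3 had a window (KRT4, KRT8 and KRT20), and that of KRT8 lies at an upstream alternative start, so the shares describe mainly keratins that were low here. A match is a description of the letters and not a bound site.

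Genes that work with keratins were described from lists of known function. Keratins are anchored to the cell surface by desmosomes. Of 18 desmosome and keratin-linker genes, 4 were at least 2-fold higher in DE than in hESCs and 0 lower, beside 12.9% and 2.55% of all names. In PP, 3 were lower than in PGT and 0 higher, beside 3.25% and 2.74% of all names, and in SC-β, 6 were higher than in PP and 0 lower, beside 10.6% and 0.939%. In PH, 7 were lower than in PP and 3 higher, beside 5.73% and 5.14%. DSP, the linker desmoplakin, was at 56.6 TPM in hESCs, 136.6 in DE and 285 in PGT, then 136.5 in PP, 157.2 in SC-β and 20.9 in PH, a peak in PGT like that of KRT19. JUP, or plakoglobin, also peaked in PGT, at 122.9 TPM, as did the linker DST among the stages of defined order, at 182.8 TPM, although DST was higher still in PH, at 302.2 TPM. DSG2, the desmoglein of simple epithelia, peaked in DE, at 102.2 TPM. DSC3, the desmocollin of stratified epithelia, was at 0.548 TPM in hESCs, 1.69 in PP, 5.47 in PH and 28.2 in SC-β.

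Of the 19 squamous differentiation genes with a row, 6 were at least 2-fold higher in SC-β than in PP and 0 lower, beside 10.6% and 0.939% of all names. They included SPRR3 and SPRR1B, which encode proteins of the cornified envelope, at 21.0 and 16.2 TPM in SC-β and at 0 in PP. The 4 most abundant genes of the list also included SFN, at 29.3 TPM in hESCs and 6.07 in SC-β, and CNFN, which peaked in DE, at 5.16 TPM. IVL, or involucrin, was at 3.33 TPM in SC-β and 0 in PP. TP63, the regulator that defines squamous basal cells, was at 4.13 TPM in PGT, 4.48 in PP, 0.909 in PH and 2.13 in SC-β, and FLG did not exceed 0.151 TPM. The summed level of the list was 34.8 TPM in hESCs, mostly SFN, then 10.3 in PP, 6.60 in PH and 62.0 in SC-β. The list was thus not higher in PH than in PP, unlike KRT4 and KRT17. Between SC-β and PP, 13 of the 19 genes were under 2-fold. The median log2 ratio was 0.18 for the list and 0.16 for all names.

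Simple epithelial partners of the keratins moved with KRT8 in PH. Of 14 such genes, 12 were at least 2-fold lower in PH than in PP and 0 higher, beside 5.73% and 5.14% of all names, with a median log2 ratio of -2.20. EPCAM was at 160.1 TPM in hESCs, 405 in DE and 348 in PGT, then 179.9 in PP, 79.4 in SC-β and 29.3 in PH, and CDH1, or E-cadherin, was at 92.6 TPM in PP and 17.7 in PH. VIL1, the brush-border villin, peaked in PGT, at 125.3 TPM, with KRT19. ESRP1, an epithelial splicing factor, was at 103.6 TPM in DE, 42.2 in PP and 5.48 in PH.

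Of 15 other intermediate filament genes, 1 was at least 2-fold higher and 6 lower in DE than in hESCs, 5 were higher and 1 lower in SC-β than in PP, and 7 were higher and 3 lower in PH than in PP, beside 12.9% and 2.55%, 10.6% and 0.939%, and 5.14% and 5.73% of all names. VIM, the filament of mesenchymal and many neural cells, was at 226.1 TPM in hESCs, 48.0 in DE and 52.3 in PGT, then 353 in PP, 1767 in SC-β and 1437 in PH, lowest in DE and PGT, where KRT8 and KRT19 peaked. NES, a filament of progenitor cells, was at 27.9 TPM in PGT and 135.8 in PH. The nuclear lamin LMNB1 was at 83.4 TPM in PGT, 120.2 in PP, 104.6 in SC-β and 55.2 in PH, and LMNB2 stayed between 45.3 and 90.7 TPM.

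Markers of other cell types also differed between stages and are given as measured, since their part in the result was not tested. All 10 mesenchymal markers were at least 2-fold higher in SC-β than in PP, beside 10.6% of all names, and their sum was 88.1 TPM in hESCs, 67.1 in DE and 98.8 in PGT, then 195.1 in PP, 1016 in PH and 2011 in SC-β, led by COL3A1 at 771 and COL1A2 at 509 TPM in SC-β. PRRX1 and PDGFRA were at 213 and 205.3 TPM there. Of 12 pancreatic duct markers, 7 were higher in SC-β than in PP and 1 was lower, beside 10.6% and 0.939% of all names. In SC-β, SPP1 was at 96.1 TPM, AMBP at 47.4, CA2 at 31.4 and ANXA4 at 22.4, and SOX9 and CFTR were at 25.2 and 12.5. AMBP and ANXA4 were higher in PP, at 119.5 and 30.4 TPM, and CA2 in DE, at 63.4 TPM. SPP1 was at 837 TPM in hESCs. The sum of the duct list was 290.0 TPM in PP and 295.3 in SC-β.

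At the PGT peak of KRT7, several markers of amnion and trophoblast were higher than in DE. The sum of 12 such markers was 49.3 TPM in DE and 543.9 in PGT, then 52.5 in PP, 55.2 in PH and 146.7 in SC-β. PGT exceeded DE at least 2-fold for 6 of the 12 and was lower for 1, beside 2.3% and 4.92% of all names. In PGT, IGFBP3 was at 304.3 TPM, GABRP at 129.5, HAND1 at 50.4, VTCN1 at 25.6 and TFAP2A at 14.2. The trophoblast hormone gene CGA was at 0.579 TPM there. GATA3, the marker that was lower, was at 23.7 TPM in DE and 10.5 in PGT. In PH, 9 of 10 neural progenitor markers were at least 2-fold higher than in PP, beside 5.14% of all names, and their sum was 364.4 against 24.8 TPM. Its members in PH included HES5 at 109.8, DLL1 at 76.5 and LHX5 at 43.4 TPM. Their part in the keratin values was likewise not tested. The marker lists were chosen with earlier results of these data known, so these counts only describe the values.

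Keratin pseudogenes limit the precision of KRT8, KRT18, KRT16 and KRT17, since reads of near-identical copies can be split between entries. The table holds 125 entries named as numbered keratin pseudogenes. The 46 of KRT8 summed to 87.4 TPM in DE, or 7.65% of KRT8 and its pseudogenes, and to 20.0 TPM in PH, or 48.3%. The 60 of KRT18 summed to 26.3 TPM in PH, or 39.2%, and to 43.3 TPM in SC-β, or 27.7%. For KRT19 the share did not exceed 0.131%. In PGT the 6 pseudogenes of KRT16 summed to 12.5 TPM while KRT16 was at 0.769 TPM. KRT6A and KRT6C are also near-identical, and their values are uncertain for the same reason.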

How the data were processed

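Total RNA of H9 cells and of differentiated spheroids was depleted of ribosomal RNA and sequenced by the authors, who used HISAT2 2.2.0 for alignment (genome build hg38) and StringTie 2.1.6 for TPM, as their processing notes and methods state. They deposited the TPM of each gene as a mean over the samples of a stage. The 12 RNA-seq samples, 2 per stage, are among 148 samples, and the other assays were not used here. The labels name ribosomal depletion and a stranded mRNA library kit. The annotation and strand setting of the counting are not given in the sources used here. Library totals are not in the table, so no interval or detection limit could be computed.

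Rows that share a name were summed. Log2 ratios were log2((TPM + 1)/(TPM + 1)), called from 2-fold, with the share of all names past the same limit beside the counts. Named were the simple keratins, every other keratin at 10 TPM or more at some stage, those from 1 to 10 TPM by their peak, and the 4 most abundant genes of each list, except that some marker genes are not reported here by name. Genes named outside this rule were DSC3, IVL, TP63, FLG, SOX9, CFTR, VTCN1, CGA, GATA3, KRT3, KRT14, KRT16, KRT79, KRT39 and KRT71. They belong to the lists or members and were chosen after their values were seen. The values of KRT5 and KRT10 at each stage were chosen in the same way. The members and lists were chosen with earlier results of these data known. Of 55 keratins in the class list, 12 had no row and were not analysed here, so each class holds only keratins with a row. Promoter windows came from RefSeq. Calculations were tested on simulated data, with Python 3.11.15, numpy 2.4.6, pandas 2.3.3 and matplotlib 3.10.9.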

Additional observations from a re-analysis of the deposited data

How the results depend on the processing

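The alternatives gave 660 values over 163 results, of which 548 kept their direction and limit (2-fold for a log2 ratio, 1.5 times for a sum or count, 10 percentage points for a share). Many of the 548 were fixed by the setting, so their number does not measure stability. The highest entry of a name alters only KRT222 among the keratins. Median-ratio factors from 0.83 (hESCs) to 1.19 (SC-β) cannot move a level or class sum by 1.5 times. Scaling a whole stage leaves the ratio of the class sums within it unchanged. The order of the squamous and simple sums in SC-β was reversed with pseudogenes added to their parents (ratio 0.993, against 1.15), an alternative applied to this ratio after seeing the data, and no log2 ratio called at 2-fold for the 11 keratins named at every stage changed sign. Over the 7 comparisons and all 48 keratins, rescaling lost 7 calls and gained 0, a pseudocount of 0.1 TPM lost 0 and gained 53, omission of abundant genes lost 3 and gained 10, the highest entry lost 1 (KRT222), and added pseudogenes gained 4 (KRT16 and KRT17, higher in PGT than in DE and PP alike). No paired analysis was possible because each deposited column is already a mean over its samples, and for that reason no replicate could be left out. Values under 1 TPM have no known precision. The cause of the changes below was not tested except where the setting itself fixes it.

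A pseudocount of 0.1 TPM, which lets low genes pass, gave 1 keratin lower in DE than in hESCs, 7 higher in PGT than in DE, 6 higher and 7 lower in PP than in PGT, 22 higher and 3 lower in SC-β than in PP, 24 higher in SC-β than in hESCs, 5 lower in PH than in PP and 24 higher in SC-β than in PH. A 4-fold limit left 1 higher in DE than in hESCs, 1 higher and 1 lower in PP than in PGT, 0 lower in SC-β than in PP or in hESCs, and 8 higher in SC-β than in PH. The limit of 1 TPM in either stage changed no count, since a gene below it cannot pass 2-fold. Median-ratio rescaling over 13938 genes shifted the stages by log2 values from -0.25 (SC-β) to 0.27 (hESCs) and left 1 keratin (KRT19) higher in DE than in hESCs.

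Leaving out the mitochondrial and the 100 most abundant genes by their mean over the stages, among which there is no keratin, raised all levels. The simple sums became 2327 TPM in hESCs, 4130 in DE and 4943 in PGT, then 1509 in PP, 431 in PH and 1152 in SC-β, the squamous sums 9.07, 8.20, 17.4, 16.6, 182.9 and 1323, and the sums of KRT23, KRT80 and KRT222 2.28, 5.85, 12.3, 173.5, 10.1 and 70.5. The counts were then 1 lower in DE than in hESCs, 4 higher in PGT than in DE and 5 lower in PP than in PGT. KRT8 in DE was at a log2 ratio to hESCs of 0.86. With pseudogenes added to their parents the squamous sum in PGT was 22.8 TPM, and with the highest entry of each name the sum of KRT23, KRT80 and KRT222 in DE was 1.58 TPM.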

Other observations

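The keratin-associated proteins, which cross-link hair keratins, were nearly silent in these cells. Of 63 such genes with a row, 3 reached 1 TPM at some stage: KRTAP5-2 at 3.02 TPM and KRTAP5-1 at 2.64 TPM, both in PH, and KRTAP5-11 at 1.35 TPM in DE. The hair keratins were likewise low. KRT40 reached 1.23 TPM in SC-β, and the other 10 did not exceed 0.588 TPM, the value of KRT39 in SC-β. No keratin of the root sheath exceeded 0.345 TPM, the value of KRT71 in PP.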
